A study of Mus musculus with 30 samples.

Results

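The 10 genes described here belong to the Wnt signalling pathway: the ligand Wnt5a, the receptor Fzd5, the secreted antagonists Dkk1, Sfrp1 and Sfrp5, the DNA-binding factors Lef1 and Tcf7l1, and the target genes Axin2, Sp5 and Znrf3. They were taken by name from a list drawn up with earlier results of these data known, and all 10 were found among the 29555 genes of both deposited gene tables. All 10 also passed the filter on low counts in every comparison with replicates. Peaks of open chromatin were taken when they lay inside 1 of these genes or within 10 kb of it, which gave 122 of 158917 peaks in the table of stem cells and endoderm and 115 of 181059 peaks in the table of stem cells alone.

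Canonical Wnt signalling starts when a Wnt ligand joins a Frizzled receptor and an Lrp co-receptor, which stops a destruction complex built on Axin and Apc from degrading beta-catenin. Beta-catenin then enters the nucleus and binds TCF and LEF factors on their target genes, several of which, such as Axin2 and Znrf3, feed back to dampen the signal. Secreted Dkk and Sfrp proteins block the pathway outside the cell, at the co-receptor and at the ligand respectively. In the gastrulating mouse embryo, Wnt and Nodal signals pattern the primitive streak, from which the definitive endoderm arises.

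RNA was sequenced and chromatin accessibility was measured by ATAC-seq, which marks open DNA by transposase insertion, in mouse epiblast stem cells (EpiSCs) and in definitive endoderm (DE) made from them. EpiSCs are pluripotent cells that resemble the epiblast after implantation. The EpiSCs of all strains grew on feeder cells in an N2B27-based medium with Fgf2, ActivinA and the Wnt inhibitor NVP-TNKS656, which blocks tankyrase and so keeps Axin protein from being degraded. For DE, EpiSCs received the Wnt agonist CHIR99201, spelled so in the labels, together with ActivinA for 16 h. They were then kept in ActivinA and the BMP inhibitor LDN193189 for 24 h, and CXCR4+ cells were isolated on magnetic beads. The labels also give a total of 46 h, and these steps add up to 40 h. EpiSCs were lifted with collagenase to leave the feeders behind. All lines were at passages 5 to 10.

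For RNA there were 5 libraries of C57BL/6 (B6) EpiSCs, 4 of B6 DE, 3 of PWK/PhJ (PWK) EpiSCs, 3 of B6.129 F1 (F1) EpiSCs and 1 of DBA/2J (DBA) EpiSCs. For ATAC-seq there were 4 of B6 EpiSCs, 4 of B6 DE, 2 of PWK EpiSCs and 1 of DBA EpiSCs. The labels call the samples biological replicates and do not say whether they came from separate lines, animals or cultures, so p-values measure the spread between these samples. Total counts ran from 22829536 to 66563933 per RNA library and from 3751526 to 9571127 per ATAC library. The endoderm markers followed the labels. The summed level of 10 such markers was 161 to 400.4 CPM (counts scaled to the library's size) in B6 EpiSCs and 6518 to 13401 CPM in B6 DE. All 10 rose, and they include Cxcr4, on which the DE cells were isolated. Of 8 EpiSC markers 2 rose and 5 fell, with a median log2 change of -2.64. The ranges of their summed level overlapped, with 3497 to 4737 CPM in B6 EpiSCs and 3148 to 4118 CPM in B6 DE. Of the other marker lists, 1 rose and 3 fell among 5 tested mesoderm genes, 1 rose and 2 fell among 4 tested neuroectoderm genes, and 2 rose and none fell among 4 tested visceral endoderm genes.

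Some libraries stood apart. The summed level of 15 fibroblast markers, which feeder cells express, ran from 93.5 to 3460 CPM in B6 EpiSCs and from 93.7 to 299.6 CPM in B6 DE, where Lum and Thy1 were under 1 CPM in every library. It was 2978 to 3906 CPM in PWK, 192 to 303 CPM in F1 and 1972 CPM in the DBA library. In the ATAC-seq data, DE replicate 51 had 6.90% of its counts on chromosome 8, against 4.46% to 5.25% in the other 7 B6 libraries, and Sfrp1 lies on that chromosome. In bulk samples, fewer cells of a type and less RNA per cell cannot be told apart.

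The promoter sequences of 4 of the genes are printed because accessibility or RNA of these genes is described further on: Sp5 and Dkk1 hold a TCF/LEF-type motif in front of their start, Axin2 holds none, and the peak over the Fzd5 start opened in DE. Each is the 250 bases before the annotated start, from RefSeq on GRCm38.p6, read 5′ to 3′ on the strand of the gene, and capitals mark a motif. The motifs searched were CTTTGAT and CTTTGAA on both strands, which share their first 6 letters and are common forms of the sequence that TCF and LEF factors bind.
Sp5, chr2:70474673-70474922, plus strand: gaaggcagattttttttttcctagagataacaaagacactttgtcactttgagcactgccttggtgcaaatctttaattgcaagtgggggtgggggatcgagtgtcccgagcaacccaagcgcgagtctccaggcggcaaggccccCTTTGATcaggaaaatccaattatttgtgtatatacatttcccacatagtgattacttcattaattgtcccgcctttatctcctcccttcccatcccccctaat
Dkk1, chr19:30549497-30549746, minus strand: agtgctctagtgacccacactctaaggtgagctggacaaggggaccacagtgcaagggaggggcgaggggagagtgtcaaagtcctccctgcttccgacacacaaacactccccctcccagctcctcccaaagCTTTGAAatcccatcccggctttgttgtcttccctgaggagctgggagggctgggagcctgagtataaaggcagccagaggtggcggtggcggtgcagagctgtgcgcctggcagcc
Axin2, chr11:108920099-108920348, plus strand: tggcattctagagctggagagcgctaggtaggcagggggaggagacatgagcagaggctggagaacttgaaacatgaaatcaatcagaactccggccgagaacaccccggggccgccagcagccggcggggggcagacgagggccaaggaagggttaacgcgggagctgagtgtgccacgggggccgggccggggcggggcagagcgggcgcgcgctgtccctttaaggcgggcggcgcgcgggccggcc
Fzd5, chr1:64737751-64738000, minus strand: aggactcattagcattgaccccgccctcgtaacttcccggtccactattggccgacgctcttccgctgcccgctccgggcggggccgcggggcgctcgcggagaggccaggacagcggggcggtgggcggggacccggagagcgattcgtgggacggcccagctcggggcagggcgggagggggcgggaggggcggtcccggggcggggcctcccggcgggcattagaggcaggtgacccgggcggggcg

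The CTTTGAT of Sp5 begins 104 bases before the start, and the CTTTGAA of Dkk1 begins 117 bases before it. Promoter entries were matched for 7 of the 10 genes, with 10 windows in all because Lef1 has 4 starts. Of these 10 windows, 2 held a motif, while 7.48% of all 32851 mouse windows of the same length held either one (3.21% held CTTTGAT and 4.46% CTTTGAA). A match describes letters only and does not show binding. The share of G and C was 46.0% in the Sp5 window, 60.8% in that of Dkk1, 69.2% in that of Axin2 and 76.4% in that of Fzd5, against a median of 52.4% over all windows.

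The first question was how the pathway genes differ between B6 DE and the B6 EpiSCs it was made from. Dkk1, Sfrp1, Sfrp5, Sp5, Fzd5 and Tcf7l1 were higher in DE, and Axin2, Lef1, Znrf3 and Wnt5a were lower. The secreted antagonists rose by 20.1-fold to 60.3-fold, while Axin2 fell to 0.0776 of its EpiSC level. Of the target genes, Sp5 and Dkk1 moved the opposite way to Axin2, Lef1 and Znrf3. By the quasi-likelihood test of edgeR, adjusted after Benjamini and Hochberg over 14085 genes, 10 of the 10 genes were called at an adjusted p under 0.05. They were 6 higher and 4 lower. The test called 62% of all genes, 31.5% higher and 30.6% lower, so a call is common in this comparison. The libraries of DE and EpiSCs did not overlap for 9 of the 10 genes, against 55.6% of all genes. The median log2 change was 1.58 over the 10 genes and -0.01 over all genes tested.

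**Figure D1:**
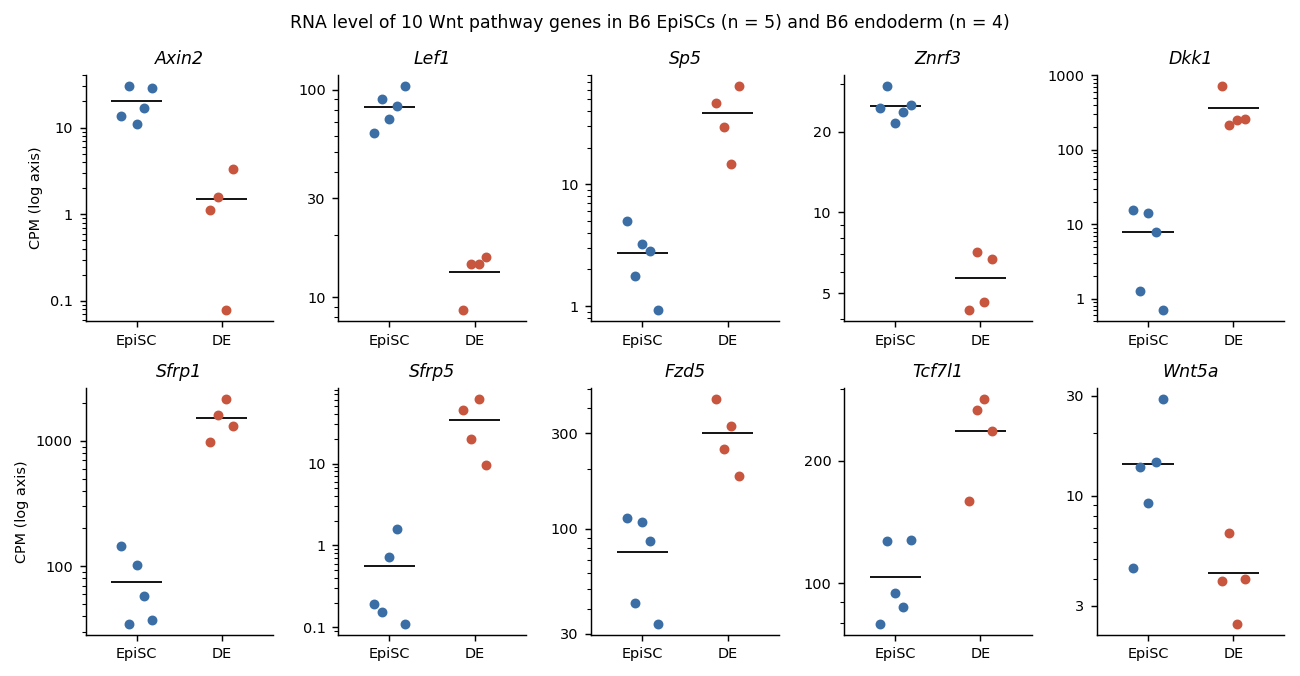
RNA level of each of the 10 genes in CPM on a log axis, with 1 point per library for B6 EpiSCs (n = 5) and B6 DE (n = 4) and a line at the group mean. The groups are apart for every gene except Wnt5a, and the 3 antagonists Dkk1, Sfrp1 and Sfrp5 show the widest gaps.

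Wnt5a (ENSMUSG00000021994, chr14:28504543-28527448) encodes a ligand that mostly signals without beta-catenin. It read 4.55, 13.7, 9.20, 14.5 and 28.9 CPM in EpiSC replicates 1, 2, 4, 44 and 51, and 3.91, 6.68, 2.46 and 4.00 CPM in DE replicates 2, 4, 44 and 51. EpiSC replicate 1 lay within the DE range, so the groups overlapped. The log2 change was -1.73 (SE 0.50, adjusted p = 0.0125). The 15 feeder markers summed to 93.5, 1456, 523, 1414 and 3460 CPM in the same 5 EpiSC libraries, so both were lowest in replicate 1, next in replicate 4 and highest in replicate 51. With only EpiSC replicates 1 and 4, an alternative chosen after seeing the data, the Wnt5a change was -0.76 and was not called (adjusted p = 0.282), while the other 16 alternatives kept the call, with 0.00064 as the lowest adjusted p. The part of feeder RNA in the Wnt5a difference was not tested.

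Fzd5 (ENSMUSG00000045005, chr1:64730558-64737750) encodes a Frizzled receptor. It read 114, 42.5, 108, 86.9 and 33.7 CPM in EpiSC replicates 1, 2, 4, 44 and 51, and 444, 250.1, 326 and 183 CPM in DE replicates 2, 4, 44 and 51. Each DE library was above each EpiSC library. The rise was 3.91-fold, a log2 change of 1.97 (SE 0.39, adjusted p = 0.00139), and 1.37 against EpiSC replicates 1 and 4 alone (adjusted p = 0.0221, the highest of 17 alternatives, with 2.13e-06 the lowest).

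Of the secreted antagonists, Dkk1 (ENSMUSG00000024868, chr19:30545876-30549496), which binds the co-receptors Lrp5 and Lrp6, read 15.6, 1.26, 14.3, 7.86 and 0.702 CPM in the EpiSC replicates in the same order. In DE it read 725, 216, 253 and 260.2 CPM. The DE libraries were far above all EpiSC libraries, and DE replicate 2 stood above the other 3. The rise was 45.7-fold, a log2 change of 5.51 (SE 0.89, adjusted p = 0.000374). Against EpiSC replicates 1 and 4 alone, where Dkk1 was highest among EpiSCs, the change was 4.52 (adjusted p = 0.00168, and 4.46e-09 to 0.00265 over 17 alternatives).

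Sfrp1 (ENSMUSG00000031548, chr8:23411383-23449632) encodes a secreted protein with a Frizzled-like domain that binds Wnt ligands. It read 144, 34.9, 102, 58.0 and 37.2 CPM in the EpiSC replicates and 975, 1615, 2150 and 1307 CPM in the DE replicates, with no overlap. The rise was 20.1-fold, a log2 change of 4.33 (SE 0.47, adjusted p = 2.68e-05), and 3.55 against EpiSC replicates 1 and 4 alone (adjusted p = 0.000948, the highest of 16 alternatives, with 1.05e-23 the lowest). DE replicate 51, the one with more ATAC-seq counts on chromosome 8, ranked below 2 of the other DE libraries for Sfrp1 RNA. The share of RNA counts on chromosome 8 was not computed, and its part in the Sfrp1 change was not tested.

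Sfrp5 (ENSMUSG00000018822, chr19:42197971-42202252), a relative of Sfrp1, was close to the detection limit in EpiSCs at 0.190, 0.152, 0.721, 1.58 and 0.111 CPM, from 5, 4, 20, 49 and 3 counts. In DE it read 45.6, 20.1, 61.4 and 9.49 CPM. The lowest DE library was above the highest EpiSC library. The rise was 60.3-fold, a log2 change of 5.91 (SE 0.85, adjusted p = 0.000174), and it reached 6.83 without EpiSC replicate 44. Over 16 alternatives the adjusted p was 5.27e-15 to 0.00404.

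Among the DNA-binding factors, Lef1 and Tcf7l1 changed in opposite directions. Lef1 (ENSMUSG00000027985, chr3:131110297-131224357), which activates targets with beta-catenin and is itself a target, read 61.8, 90.7, 72.4, 83.2 and 105 CPM in EpiSCs and 8.64, 14.4, 14.4 and 15.6 CPM in DE. It fell by 2.64 on the log2 scale (SE 0.23, adjusted p = 6.46e-06), with no overlap. Tcf7l1 (ENSMUSG00000055799, chr6:72626371-72789045), known mainly as a repressor of Wnt targets in pluripotent cells, read 79.7, 127, 94.9, 87.6 and 128 CPM in EpiSCs and 159.5, 266, 284 and 236 CPM in DE. All DE libraries were above all EpiSC libraries. Its log2 change was 1.19 (SE 0.21, adjusted p = 0.000606). Non-coding genes, Gm15401 among them, overlap Tcf7l1 in the annotation, and whether strand was used in counting is not given in the sources used here.

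Axin2 (ENSMUSG00000000142, chr11:108917828-108950783), a scaffold of the destruction complex and a common readout of canonical signalling, read 13.7, 30.4, 10.9, 17.0 and 28.7 CPM in EpiSCs. In DE it read 1.12, 1.57, 0.0782 and 3.30 CPM, the third value resting on 2 counts. DE was lower throughout, with a log2 change of -3.69 (SE 0.75, adjusted p = 0.00157). The change was -4.40 without DE replicate 51 and -3.09 against EpiSC replicates 1 and 4 alone (adjusted p = 0.0346, the highest of 16 alternatives, with 2.23e-08 the lowest).

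Znrf3 (ENSMUSG00000041961, chr11:5276329-5444847), a ubiquitin ligase that removes Frizzled receptors from the membrane, read 24.6, 29.6, 21.5, 23.7 and 25.1 CPM in EpiSCs and 4.32, 7.14, 4.65 and 6.72 CPM in DE. It had the smallest spread of the 10 genes in EpiSCs, relative to its level, and no overlap with DE. The log2 change was -2.12 (SE 0.22, adjusted p = 1.95e-05).

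Sp5 (ENSMUSG00000075304, chr2:70474923-70477726) encodes a zinc finger factor that is a direct target of beta-catenin and TCF. It read 5.04, 1.75, 3.25, 2.81 and 0.923 CPM in EpiSCs and 46.4, 29.9, 14.8 and 64.9 CPM in DE. Every DE library was above every EpiSC library. The rise was 14.1-fold, a log2 change of 3.82 (SE 0.53, adjusted p = 0.00014), and 3.14 against EpiSC replicates 1 and 4 alone (adjusted p = 0.007, the highest of 17 alternatives, with 2.39e-13 the lowest).

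The B6 EpiSC libraries differed among themselves in a way that most of the genes shared. Replicates 2 and 51 had the highest Axin2, Lef1, Znrf3 and Tcf7l1 and the lowest Dkk1, Sfrp1, Sfrp5, Fzd5 and Sp5 of the 5 libraries. Replicate 1 had the highest Dkk1, Sfrp1, Fzd5 and Sp5, and Dkk1 was 15.6 CPM there against 0.702 CPM in replicate 51. Replicates 2 and 51 also had the lowest summed endoderm markers, 171 and 161 CPM against 261 to 400.4 CPM in the other 3, and the lowest summed mesoderm markers, 140.2 and 108 CPM against 279.6 to 571 CPM. Their summed EpiSC markers were the highest, 4737 and 4700 CPM against 3497 to 3835 CPM. The part of these cell states in the spread of the Wnt genes was not tested. Feeder marker sums were also highest in replicates 51 and 2, at 3460 and 1456 CPM, and lowest in replicate 1, at 93.5 CPM. Replicate 44, with 1414 CPM, was close to replicate 2, and replicate 4 had 523 CPM. The part of feeder RNA in this spread was not tested either.

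The other genes of the pathway were read by role, from lists that hold some of the 10 genes as well. Those named had the largest called changes of their list among genes with a mean log2 CPM of at least 1. The number of calls in each list has to be read against the whole comparison. There, edgeR called 62% of all genes, 31.5% upward and 30.6% downward. Whether any list departs from these shares was not tested. Of 19 Wnt ligands, 10 could be tested, and 2 were higher and 3 lower in DE. Wnt11 rose from a mean of 3.43 to 7.79 CPM (log2 change 1.18, SE 0.44, adjusted p = 0.0369). Wnt8a, an early posterior Wnt ligand, was nearly lost, with 2715 counts over the EpiSC libraries and 8 over the DE libraries. Corrected for depth the EpiSC level was 421 times higher, with a 95% counting interval of 213 to 976. Wnt5b fell by 2.18 (SE 0.46, adjusted p = 0.00194). Of 6 genes for ligand secretion and R-spondins, 4 were tested and 1 changed: the gene Porcn, which acylates Wnt proteins, rose from 7.58 to 25.6 CPM (log2 change 1.75, SE 0.36, adjusted p = 0.00174).

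Receptors and co-receptors moved both ways, with 6 of 18 higher and 7 lower, and their median change was 0.10 on the log2 scale. Fzd8 rose from 22.8 to 723 CPM (log2 change 4.99, SE 0.43, adjusted p = 6.98e-06). Ror1, a receptor for Wnt5a, rose by a log2 change of 2.63 (SE 0.31, adjusted p = 4.85e-05). Lrp5, a co-receptor of canonical signalling and a partner of Dkk1, fell from 142 to 8.14 CPM (log2 change -4.10, SE 0.59, adjusted p = 0.00017). Fzd4 had a log2 change of -4.00 (SE 0.90, adjusted p = 0.00296).

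Secreted and membrane antagonists had the highest median of the lists, 1.43 on the log2 scale. The list holds Cer1 and also Dkk1, Sfrp1 and Sfrp5, which were chosen with earlier results of these data known. Its median without these genes was not computed. Of 20 antagonists, 17 were tested, 8 were higher and 5 lower. The largest rise was that of Cer1, which binds Nodal and BMP and is itself an endoderm marker, from 80.8 to 6465 CPM (log2 change 6.32, SE 1.00, adjusted p = 0.000317). The next was Sfrp5. In the other direction, Dkk2 fell by 4.16 (SE 1.34, adjusted p = 0.0197) and Sfrp2 by 1.27 (SE 0.47, adjusted p = 0.0349). The feeder marker list fell too, 12 of 15 lower with a median of -3.96, and the part of feeder RNA in the antagonists that fell was not tested.

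In the destruction complex, 3 of 16 genes rose and 5 fell, and the median change was -0.05. Btrc, the ubiquitin ligase subunit that recognises beta-catenin, rose by 0.86 (SE 0.13, adjusted p = 0.000227), and Rnf146, which acts with tankyrase on Axin, by 0.83 (SE 0.13, adjusted p = 0.000245). Below Axin2, the largest fall was that of Apc2, by 1.89 (SE 0.50, adjusted p = 0.00749). Of 14 nuclear factors, 13 were tested, with 6 higher and 4 lower and a median of 0.31. The co-repressor gene Tle2 rose by 4.35 (SE 0.28, adjusted p = 1.3e-06). Tcf7l2, of the same family as Tcf7l1 and Lef1, rose from 25.0 to 419 CPM (log2 change 4.07, SE 0.26, adjusted p = 1.3e-06). After Lef1 came the beta-catenin partner Bcl9, which fell by 2.47 (SE 0.19, adjusted p = 3.41e-06). Its relative Bcl9l, below the level for naming, had 212 counts over the EpiSC libraries and none in DE.

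Of 21 target genes, which include Axin2, Lef1, Sp5, Znrf3 and Dkk1, 19 were tested, with 4 higher and 7 lower and a median of -0.25. Ascl2 rose from 1.19 to 41.6 CPM (log2 change 5.12, SE 0.37, adjusted p = 2.63e-06), second to Dkk1. Tnfrsf19 fell by 6.00 (SE 0.74, adjusted p = 6.45e-05) and T, the primitive streak and mesoderm factor, by 5.02, from 274 to 8.51 CPM (SE 0.76, adjusted p = 0.000237). Of 11 genes of planar polarity and non-canonical signalling, 1 was higher and 5 lower, with a median of -0.43. Ror2 was the one that rose (log2 change 0.78, SE 0.24, adjusted p = 0.0149), and the cadherins Celsr3 and Celsr2 fell by 5.08 and 2.58 (SE 0.66 and 0.31, adjusted p = 9.06e-05 and 5.89e-05).

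**Figure D2:**
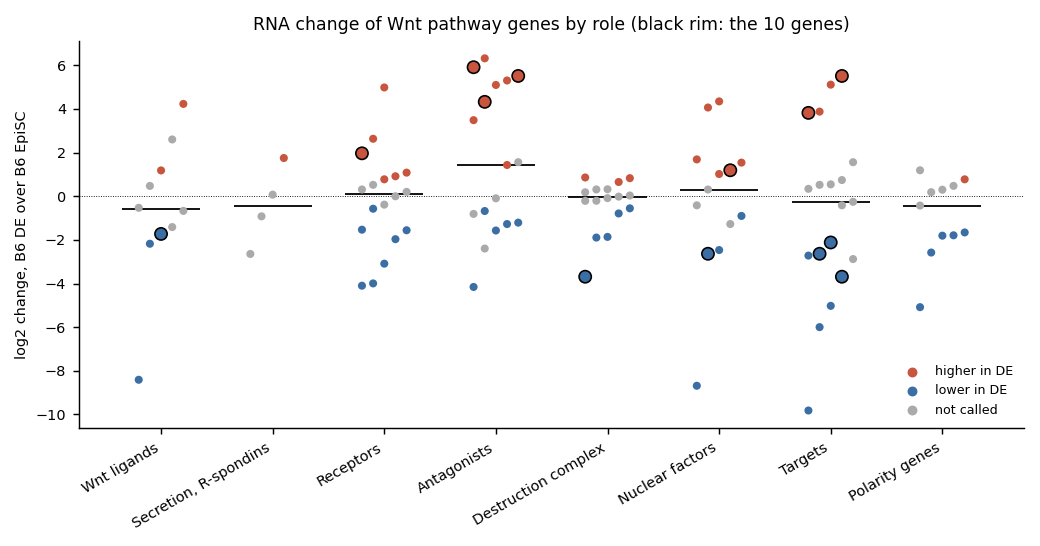
Log2 change of RNA between B6 DE and B6 EpiSCs for each tested gene of the pathway lists, 1 point per gene, coloured by call, with a line at the median of each list and a black rim on the 10 genes. The antagonists have the highest median, 1.43, in a list that holds Dkk1, Sfrp1 and Sfrp5. The points below -8 are fitted changes of genes with 8 or fewer counts in DE as a whole, so their position is no bound.

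For the 7 genes with a log2 change over 2 in size, the genes most like them were found over the 9 B6 libraries, by the root mean square difference between log2 CPM profiles after each was centred on its mean. There were 9504 candidates, of which 68.3% were called in the same comparison, so any gene with a large change resembles others. Nanog, a pluripotency factor, was nearest to Axin2 at 0.351, next to Fgfr1 at 0.352, and Jade1 and Foxk1 were nearest to Lef1 at 0.175 and 0.182. Cdk12 and Spred2 were nearest to Znrf3 at 0.0916 and 0.105. Cfc1, a co-receptor for Nodal, was nearest to Dkk1 at 0.301, next to Apobec2 at 0.418. Hs3st3b1 and Tm6sf1 were nearest to Sfrp1 at 0.318 and 0.330, Rbp4 and Chga to Sfrp5 at 0.494 and 0.529, and Fam89a and Gpx2 to Sp5 at 0.398 and 0.430. The median candidate was between 1.16 and 3.17 away from each of these genes.

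The second question was whether accessibility near the 10 genes changed with their RNA. In B6 DE against B6 EpiSCs, 104 of the 122 nearby peaks could be tested, and 44 of them rose and 26 fell. Their median change was 0.32 on the log2 scale. Over all 113870 peaks tested, 57.6% were called, 32.6% higher and 25.0% lower, and the median was -0.01, so the share that fell near these genes was that of all peaks. The groups did not overlap in 63 of the 104 peaks, against 53.8% of all peaks. At Sfrp1 all 7 tested peaks rose, at Axin2 none of 9 rose and 2 fell, and at Lef1 6 rose and 8 fell among 19. Tcf7l1, with 31 tested peaks, had 15 that rose and 7 that fell. Znrf3 had 7 that rose and 4 that fell among 13, although its RNA fell. None of the 3 tested peaks at Sp5 was called. Coordinates are those of the files, on mm10.

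At Dkk1, the peak over the start (chr19:30549447-30549713), which overlaps the printed promoter with its CTTTGAA, read 14.9, 17.7, 13.8 and 15.5 CPM in EpiSC replicates 1, 4, 44 and 51 and 19.6, 19.1, 13.1 and 15.9 CPM in DE replicates 2, 4, 44 and 51. The ranges overlapped, and the log2 change of 0.12 was not called (SE 0.20, adjusted p = 0.623). A peak 890 bases upstream (chr19:30550386-30550573) read 1.52, 0.954, 0 and 0.590 CPM in EpiSCs and 15.5, 18.3, 19.8 and 13.7 CPM in DE. It opened in all 4 DE libraries, by 19.7-fold (log2 change 4.30, SE 0.39, adjusted p = 1.53e-08).

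At Fzd5, the peak over the start (chr1:64737574-64738447) covers the printed promoter. It read 44.5, 47.9, 44.5 and 39.0 CPM in EpiSCs and 122, 128, 108 and 113 CPM in DE, with no overlap. The rise was 2.68-fold (log2 change 1.42, SE 0.11, adjusted p = 3.76e-09), and it was the peak with the smallest p among those near Fzd5.

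At Sfrp1 the peak over the lower-coordinate end of the gene (chr8:23411304-23411578) read 18.3, 17.0, 22.8 and 17.3 CPM in EpiSCs and 29.6, 29.3, 27.1 and 34.3 CPM in DE (log2 change 0.68, SE 0.16, adjusted p = 0.00124). A peak inside the gene (chr8:23443371-23443735) read 2.13, 4.77, 4.37 and 3.69 CPM in EpiSCs and 28.6, 39.2, 30.8 and 49.97 CPM in DE. It opened by 9.77-fold (log2 change 3.29, SE 0.25, adjusted p = 1.9e-09). DE replicate 51, with its larger share of counts on chromosome 8, was the highest at both peaks, and over all alternatives, including those without it, the changes were 0.44 to 0.76 and 2.90 to 3.41.

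At Sfrp5, the peak over the start (chr19:42202104-42202272) was low, with means of 2.87 CPM in EpiSCs and 1.42 CPM in DE, and was not called (log2 change -0.99, SE 0.48, adjusted p = 0.0807). It was called lower in 4 of 14 alternatives, with total library size (adjusted p = 0.0355), without EpiSC replicate 1 (0.0386), without DE replicate 44 (0.0279) and without chromosome 8 (0.0424). The peak with the smallest p, inside the gene (chr19:42199831-42199912), read 1.83, 0.954, 1.70 and 0.738 CPM in EpiSCs and 2.35, 4.23, 3.82 and 1.65 CPM in DE. The groups overlapped, and the log2 change of 1.28 (SE 0.48, adjusted p = 0.0279) was called in 5 of 14 alternatives.

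At Lef1 the peak over the start (chr3:131110224-131110305) fell from a mean of 4.87 to 2.11 CPM (log2 change -1.23, SE 0.37, adjusted p = 0.00718), with no overlap. A stronger peak 7602 bases upstream (chr3:131102241-131102695) read 46.3, 33.5, 30.1 and 54.6 CPM in EpiSCs and 3.33, 3.76, 6.27 and 7.69 CPM in DE. It closed to 0.126 of its EpiSC level (log2 change -2.99, SE 0.25, adjusted p = 8.39e-09).

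At Tcf7l1 the peak at the start (chr6:72789083-72789408) had means of 9.48 CPM in EpiSCs and 16.0 CPM in DE, with overlapping ranges (log2 change 0.72, SE 0.25, adjusted p = 0.0186), and was called in 10 of 15 alternatives. A peak 5843 bases upstream (chr6:72794888-72795222) went the other way, from 24.1, 18.8, 18.0 and 28.2 CPM in EpiSCs to 0.784, 2.82, 0.954 and 1.65 CPM in DE (log2 change -3.82, SE 0.33, adjusted p = 8.56e-09). The RNA of Tcf7l1 rose while this upstream peak closed.

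Axin2 had 2 of 9 tested peaks that fell and none that rose, with a median log2 change of -0.44. Its start peak (chr11:108920142-108920455), which overlaps the printed promoter, read 18.1, 14.2, 18.2 and 16.7 CPM in EpiSCs and 13.5, 18.8, 13.4 and 14.6 CPM in DE. The ranges overlapped, and the log2 change of -0.15 was not called (SE 0.20, adjusted p = 0.535). A peak 4940 bases inside the gene (chr11:108925289-108925455) fell from a mean of 10.1 to 5.42 CPM (log2 change -0.89, SE 0.27, adjusted p = 0.00664), with no overlap.

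At Sp5, a peak that begins 128 bases past the start (chr2:70475051-70475191) read 5.94, 4.48, 3.16 and 5.46 CPM in EpiSCs and 9.21, 7.05, 6.27 and 8.51 CPM in DE. Although the groups did not overlap, the log2 change of 0.68 was not called (SE 0.29, adjusted p = 0.054). Sp5 RNA rose 14.1-fold in the same comparison.

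At Znrf3, the peak over the higher-coordinate end (chr11:5444762-5444987) had means of 5.62 CPM in EpiSCs and 9.80 CPM in DE (log2 change 0.75, SE 0.29, adjusted p = 0.0305), with overlapping ranges, and it was called in 6 of 15 alternatives. A peak inside the gene (chr11:5419750-5420001) read 0.609, 0.572, 0.972 and 0.295 CPM in EpiSCs and 12.9, 9.71, 11.2 and 9.61 CPM in DE (log2 change 4.19, SE 0.38, adjusted p = 1.79e-08). Another, singled out after its values were seen (chr11:5294993-5295128), had 100 counts over the EpiSC libraries and none in DE. With 3 counts over the DE group taken as the floor, the fall was 26.8-fold. Counting error in both groups puts the lower 95% limit of the fall at 21.4-fold.

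At Wnt5a, a peak inside the gene (chr14:28521651-28521876) opened from 0.305, 0.382, 0.486 and 0.590 CPM in EpiSCs to 5.88, 5.64, 8.73 and 6.04 CPM in DE (log2 change 3.87, SE 0.45, adjusted p = 3.99e-07), while Wnt5a RNA was lower in DE. The peak 967 bases past the higher-coordinate end (chr14:28528415-28528583) fell from a mean of 12.1 to 7.25 CPM (log2 change -0.73, SE 0.25, adjusted p = 0.0163), a call lost without DE replicate 4 (-0.62, adjusted p = 0.0679). The peak nearest to the other end was not called (log2 change 0.23, SE 0.41, adjusted p = 0.651).

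**Figure D3:**
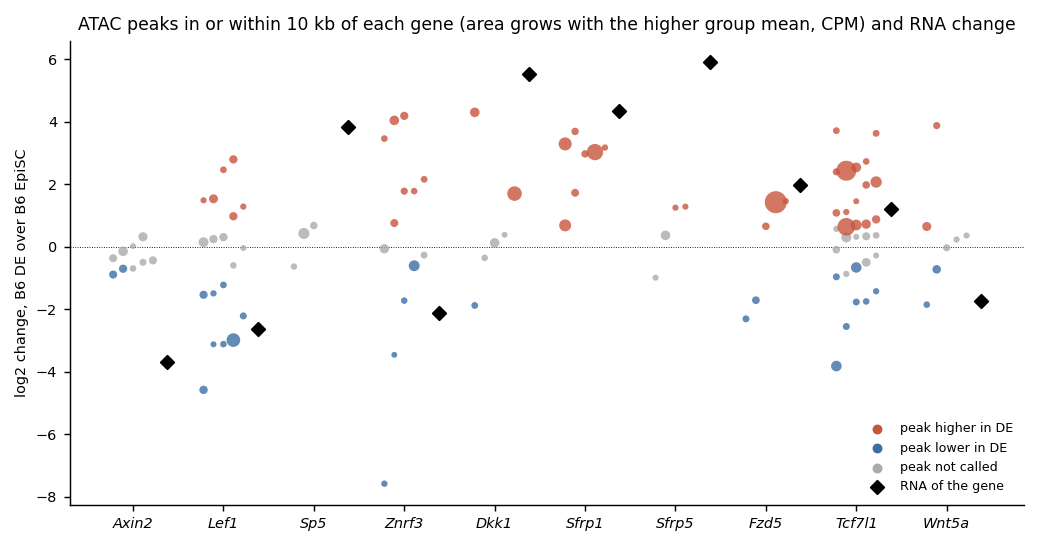
Log2 change between B6 DE and B6 EpiSCs of each tested ATAC-seq peak in or within 10 kb of the 10 genes, 1 point per peak with its area growing with the higher group mean in CPM, coloured by call, beside a diamond for the RNA change of the gene. Peaks of both directions occur at Lef1, Znrf3, Dkk1, Fzd5, Tcf7l1 and Wnt5a, all called peaks at Sfrp1 rose, and the lowest point, at Znrf3, is a peak without counts in DE, so its position is no bound.

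The third question was how the 10 genes vary between EpiSCs of different backgrounds, which all grew with the Wnt inhibitor. Only Wnt5a was called in either comparison with B6, higher in PWK and lower in F1. The comparisons share the 5 B6 libraries. Between PWK and B6, 1 of the 10 genes was called by edgeR's quasi-likelihood test, against 26.5% of 14822 genes (12% higher and 14.5% lower). Between F1 and B6, 1 was called, against 2.84% of the genes (1.34% higher and 1.5% lower). Between PWK and F1, 3 were called, against 40.0% of the genes (20.7% higher and 19.4% lower). The groups did not overlap for 2 of the 10 genes between PWK and B6 (32.1% of all genes), for 1 between F1 and B6 (15.3%) and for 5 between PWK and F1 (62.9%). The PWK libraries are named BioRep695 and BioRep698 and the F1 libraries 4 and 9, as the labels have it. The last library of each strain is called unnumbered here, because the name of its column carries no number that matches a label and could be placed by strain only. The number of genes called moved with the libraries. For F1 over B6 it ran from 0 to 1952 by edgeR when 1 library was left out, each of the 8 libraries moving it by over 1.5 times, and was 2007 by DESeq2, against 421. For PWK over B6 it was 2446 to 2462 without any 1 of the PWK libraries, against 3923.

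**Figure D4:**
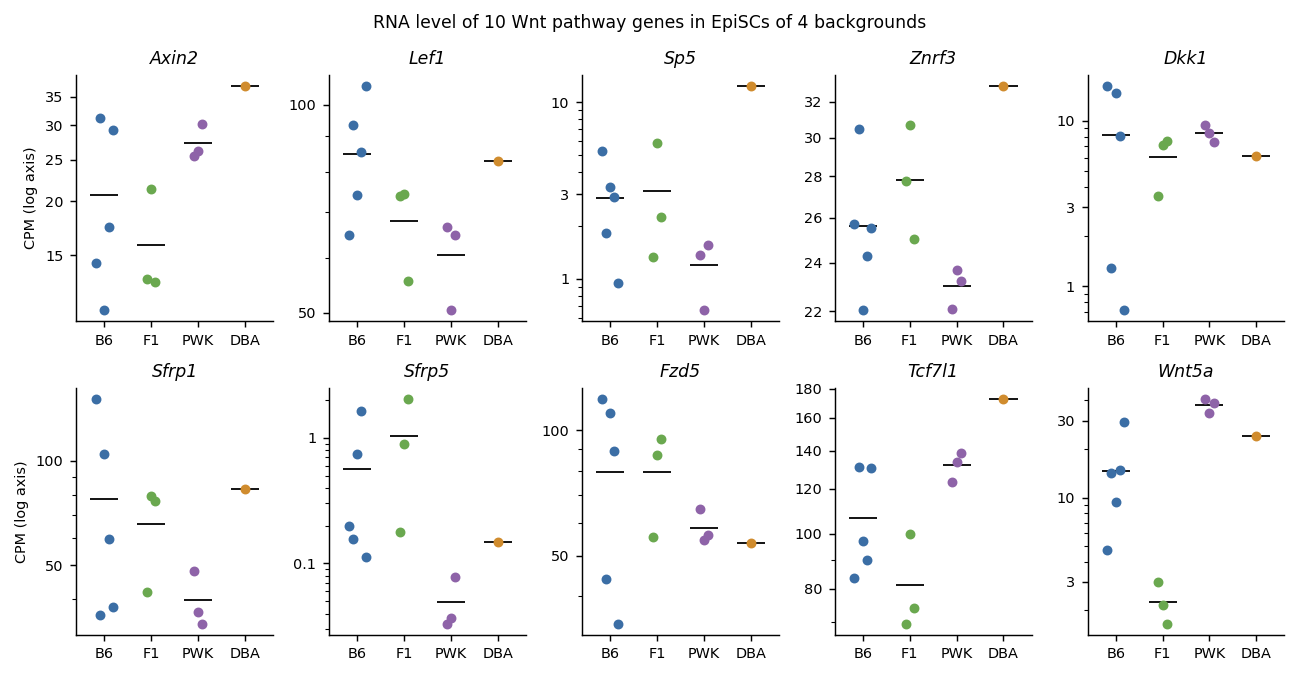
RNA level of each of the 10 genes in CPM on a log axis in EpiSCs of B6 (n = 5), F1 (n = 3), PWK (n = 3) and DBA (n = 1), with 1 point per library and a line at the group mean. Wnt5a separates F1, B6 and PWK without overlap, and the single DBA library is above the B6 range for Axin2, Sp5, Znrf3 and Tcf7l1. The share of all genes above that range in the DBA library was not computed.

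Wnt5a read 33.4 CPM in PWK BioRep698, 40.8 CPM in BioRep695 and 38.5 CPM in the unnumbered PWK library. It read 3.002 and 2.15 CPM in F1 replicates 4 and 9 and 1.66 CPM in the unnumbered F1 library, and 24.2 CPM in the DBA library. The B6 libraries ran from 4.76 to 29.5 CPM with a median of 14.2 CPM, so F1, B6 and PWK stood in this order without overlap, and DBA lay within B6. The log2 difference was 1.37 for PWK over B6 (SE 0.44, adjusted p = 0.0424), -2.72 for F1 over B6 (SE 0.53, adjusted p = 0.0341) and 4.09 for PWK over F1 (SE 0.58, adjusted p = 0.000526).

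The calls against B6 depended on the libraries used. For PWK over B6, the adjusted p ran from 0.00341 to 0.113 over 15 alternatives and the call held in 7 of them. It was lost without B6 replicate 2, 4 or 44, without any 1 of the PWK libraries, without a filter on low counts, and with only both groups in the fit. For F1 over B6, the adjusted p ran from 8.26e-07 to 0.177 and the call held in 10 of 15. It was lost without B6 replicate 44, without any 1 of the F1 libraries, and with only both groups in the fit. For PWK over F1, all 12 alternatives kept the call, with adjusted p from 1.82e-14 to 0.00423.

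The feeder markers also differed between the strains. They summed to 2978, 3823 and 3906 CPM in PWK BioRep698 and BioRep695 and the unnumbered library, and to 303, 192 and 236 CPM in F1 replicates 4 and 9 and the unnumbered library. In B6 they ran from 97.9 to 3526 CPM. Of the 15 markers, 15 were higher in PWK than in F1 and 1, Twist2, was under 1 CPM in all F1 libraries. Against B6 replicates 2, 44 and 51 alone, those with the feeder sums nearest to PWK, the Wnt5a difference was 0.94 (adjusted p = 0.0436). Against B6 replicates 1 and 4 alone, those nearest to F1, it was -1.66 (adjusted p = 0.0208). Both alternatives were chosen after seeing the data. Of 4 tested neuroectoderm markers, 2 were lower in PWK than in B6 and 2 lower than in F1 (median log2 differences -4.77 and -3.72). Of 6 tested mesoderm markers 2, and of 3 tested visceral endoderm markers 2, were higher in PWK than in F1, and 1 visceral endoderm marker was higher than in B6. The part of feeder RNA and of these markers in the strain differences of Wnt5a was not tested.

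**Figure D5:**
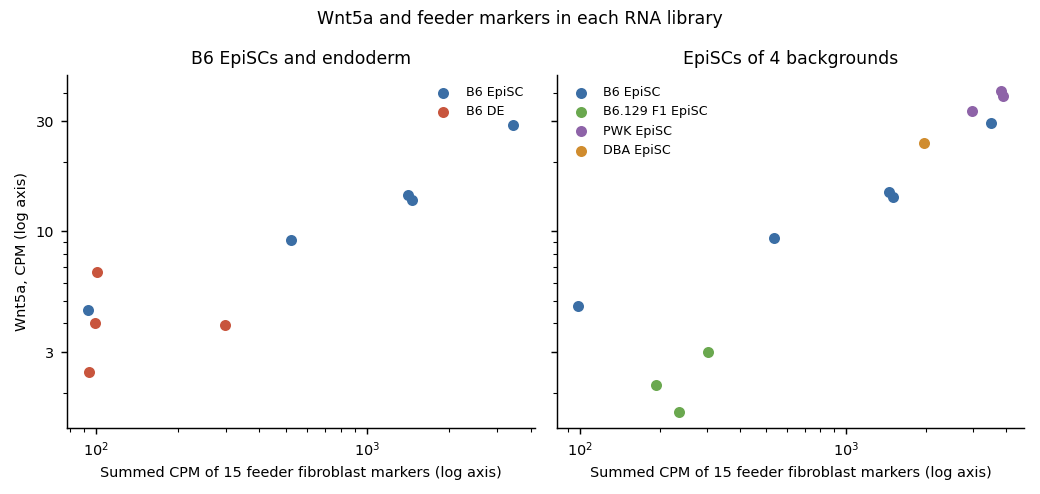
Wnt5a RNA against the summed RNA of 15 feeder fibroblast markers, both in CPM on log axes, 1 point per library, for B6 EpiSCs and B6 DE (left) and for EpiSCs of 4 backgrounds (right). The F1 libraries lie at low values of both (Wnt5a 1.66 to 3.002 CPM) and the PWK libraries at high values of both (Wnt5a 33.4 to 40.8 CPM), and both values of a point share the depth and scaling of their library.

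Tcf7l1 read 134, 123 and 138 CPM in PWK BioRep698 and BioRep695 and the unnumbered library, and 69.4, 99.8 and 74.0 CPM in F1 replicates 4 and 9 and the unnumbered library. PWK was higher throughout, by a log2 difference of 0.75 (SE 0.20, adjusted p = 0.0137). The call was lost without F1 replicate 4 (adjusted p = 0.0584) and without the unnumbered F1 library (adjusted p = 0.0558). Neither group was called against B6, where Tcf7l1 ran from 83.4 to 131 CPM, and the differences were 0.31 for PWK (adjusted p = 0.211) and -0.43 for F1 (adjusted p = 0.175).

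Sfrp5 was at the detection limit in EpiSCs of every strain. It had 1, 1 and 2 counts in the PWK libraries and 5, 25 and 49 counts in the F1 libraries, so the groups did not overlap. In B6 there were 81 counts in all, and each PWK library was below each B6 library, with a pooled B6 level 12.5 times that of PWK (95% counting interval 4.68 to 46.8). That difference was not called (adjusted p = 0.062), but was by DESeq2 (0.0183) and without B6 replicate 51 (0.0385). The pooled level was 20.4 times higher in F1 than in PWK, with a 95% counting interval of 7.68 to 76.9 that covers counting error only, and the difference was called (adjusted p = 0.0239). The call was lost without any 1 of the PWK libraries and without the unnumbered F1 library, with adjusted p from 0.0563 to 0.0861, and Sfrp5 was not tested when 10 counts were asked of every library.

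The other 7 genes were not called in the strain comparisons, apart from the alternatives named here. Axin2 read 26.2, 25.5 and 30.2 CPM in PWK BioRep698 and BioRep695 and the unnumbered library, and 13.2, 21.4 and 13.0 CPM in F1 replicates 4 and 9 and the unnumbered library. PWK was above F1 in every library, by a log2 difference of 0.83 that did not pass (SE 0.37, adjusted p = 0.102). It passed with only both groups in the fit (0.82, SE 0.20, adjusted p = 0.00958, against up to 0.258 over 12 alternatives). B6, from 11.2 to 31.3 CPM, spanned both groups. Lef1 ran from 50.4 to 66.5 CPM in PWK, 55.5 to 74.1 CPM in F1 and 64.7 to 106 CPM in B6 (PWK over B6 -0.48, SE 0.18, adjusted p = 0.0655). The Lef1 difference passed in 3 of 15 alternatives: by DESeq2 (-0.46, adjusted p = 0.0357), without B6 replicate 1 (-0.57, adjusted p = 0.0217) and against B6 replicates 2, 44 and 51 alone (-0.66, adjusted p = 0.0105). The highest adjusted p was 0.213.

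Znrf3 had the narrowest ranges, 22.1 to 23.7 CPM in PWK, 25.0 to 30.7 CPM in F1 and 22.0 to 30.5 CPM in B6. Sp5 ran from 0.663 to 1.56 CPM in PWK, 1.32 to 5.85 CPM in F1 and 0.941 to 5.28 CPM in B6. For the antagonist Dkk1, PWK read 7.50 to 9.42 CPM and F1 3.50 to 7.55 CPM, both inside the B6 range of 0.715 to 16.3 CPM. Against B6 replicates 1 and 4 alone, Dkk1 was lower in F1 by 1.37 on the log2 scale and passed (adjusted p = 0.0314, the lowest of 15 alternatives, with 0.985 the highest). Sfrp1 ran from 33.9 to 48.0 CPM in PWK, 41.8 to 79.3 CPM in F1 and 36.0 to 151 CPM in B6. For Fzd5 the ranges were 54.4 to 64.5 CPM, 55.4 to 95.4 CPM and 34.3 to 119 CPM in the same order. For Dkk1, Sfrp1 and Fzd5 the B6 libraries spread more widely than either other strain.

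The DBA line had 1 library and so no test. Its RNA label carries the name BioRep698, which a PWK label carries too. It read 37.1 CPM for Axin2, 12.4 CPM for Sp5, 32.9 CPM for Znrf3 and 173 CPM for Tcf7l1, each above the highest B6 library. The share of all genes above the B6 range in this library was not computed, so these positions have no background. Log2 ratios to the B6 mean were 0.83 for Axin2, 0.36 for Znrf3 and 0.70 for Tcf7l1. Sp5 was the only one of the 9 genes with a mean of at least 1 CPM that was more than 2-fold from the B6 mean, with a log2 ratio of 1.94, where 6.43% of 12916 genes were that far (2.55% higher and 3.88% lower). Lef1 (82.8 CPM), Dkk1 (6.12 CPM), Sfrp1 (83.1 CPM), Sfrp5 (0.149 CPM) and Fzd5 (53.5 CPM) lay within the B6 range.

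Few peaks near the 10 genes were called between PWK and B6 EpiSCs. Of 115 nearby peaks, 98 were tested, none was higher and 1 was lower, against 1.42% and 3.68% of all 137667 tested peaks, or 5.11% in either direction. The number of all peaks called, 7032, was 3824 without B6 replicate 1, 3637 without B6 replicate 4, 4584 without the unnumbered PWK library and 2222 with at least 10 counts asked of every library. The median log2 difference was -0.23 over the 98 peaks and 0.04 over all peaks. The groups did not overlap in 20 of the 98, against 25.9% of all peaks. The count of none did not hold in every setting. With edgeR, 1 peak was higher with RLE size factors, with total library size and without B6 replicate 51, and DESeq2's Wald test gave 1. The peak that was lower lies 8493 bases past the Axin2 start (chr11:108928842-108929017), with means of 3.62 CPM in PWK (SD 1.60, n = 2) and 10.3 CPM in B6 (SD 1.06, n = 4) and a log2 difference of -1.53 (SE 0.35, adjusted p = 0.0196). No member peak was called lower without B6 replicate 1.

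The start peaks of Fzd5 (log2 difference 0.06, SE 0.16, adjusted p = 0.909) and Dkk1 (-0.21, SE 0.23, adjusted p = 0.707) were not called. Those of Lef1 (-1.17, SE 0.41, adjusted p = 0.138) and Sfrp5 (-1.94, SE 0.64, adjusted p = 0.108) were lower in both PWK libraries than in all 4 B6 libraries without passing, as was that of Axin2 (-0.41, SE 0.22, adjusted p = 0.394). The peaks nearest to the lower-coordinate ends of Sfrp1 (-0.45, SE 0.23, adjusted p = 0.355) and Wnt5a (-1.32, SE 0.63, adjusted p = 0.309) were lower in the same way. That of Znrf3 was higher in both PWK libraries than in all B6 libraries without passing (0.81, SE 0.62, adjusted p = 0.571). The ranges overlapped, without a call, at the starts of Sp5 (0.43) and Tcf7l1 (0.18) and the higher-coordinate ends of Znrf3 (-0.10) and Wnt5a (0.01). In the DBA ATAC-seq library, 100 of the nearby peaks had a mean of at least 1 CPM, 2 of them more than 2-fold above the B6 mean and 7 more than 2-fold below, where 2.91% and 15.1% of all 141315 such peaks were that far. The single library has no replicate check.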

How the data were processed

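The authors deposited tables of counts per gene and per ATAC-seq peak. Per the submitters' processing notes, Salmon, featureCounts and DESeq2 were used for RNA and fastp, Bowtie2, MACS2, featureCounts and DESeq2 for ATAC-seq, on mm10. The role of each tool, and whether strand was used, are not given in the sources used here. Columns without a replicate number were placed by strain. In the EpiSC peak table, 17 columns matched no sample and were not used, and 3 PWK DE RNA samples were not analysed here. The B6 EpiSC columns were identical in both gene tables. No replicate pair agreed within sampling noise (smallest chi-square per feature 9.71 for RNA and 2.77 for ATAC-seq).

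Each table was fitted with edgeR 4.0.16 (R 4.3.3, limma 3.58.1): filterByExpr, TMM scaling and the quasi-likelihood F-test, with Benjamini-Hochberg adjustment over all features tested and a threshold of 0.05. The B6 fit held 9 RNA libraries, and the strain fits held all replicated EpiSC groups. CPM values are scaled by TMM. DESeq2 1.42.0 was an alternative. The code was tested on simulated data. Peaks were assigned within 10 kb of a gene, as annotated by RefSeq on GRCm38.p6. For the other pathway genes, up to 2 called genes per list and direction were named, by largest change among those with a mean log2 CPM of at least 1. For each of the 10 genes, the peak at the start (or both gene ends where no start was matched) and the peak with the smallest p were named. Like genes were sought at a mean log2 CPM of 3 or more. The genes and lists were chosen with earlier results of these data known. Intervals of count ratios are exact binomial ones at 95%.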

Additional observations from a re-analysis of the deposited data

Results flagged for a closer look

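Among 62 sets of 4 or 5 values scanned, 3 had 1 library far from the others by Dixon's criterion, where chance alone marks about 1 set in 20. Dkk1 RNA read 725 CPM in B6 DE replicate 2, against 216 to 260.2 CPM in the other 3 DE libraries. The peak inside Wnt5a (chr14:28521651-28521876) read 8.73 CPM in DE replicate 44, against 5.64 to 6.04 CPM. A low peak inside Znrf3 (chr11:5290838-5290927), too low to be tested, read 0.313 CPM in DE replicate 4, against 1.09 to 1.18 CPM.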

How the results depend on the processing

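In B6 DE against B6 EpiSCs, the RNA counts of 6 higher and 4 lower genes kept within 1.5 times under all alternatives, and of the single genes only Wnt5a lost its call, against EpiSC replicates 1 and 4. The replicate block left 6 higher and 4 lower genes (7731 genes called in all, against 8737). For Dkk1 it gave a log2 change of 6.47. For the peaks it gave 35 higher and 19 lower, against 44 and 26 (55230 called in all, against 65601). It ended the calls of the Axin2 peak inside the gene (adjusted p = 0.0711), the Lef1 start peak (0.0985), the Znrf3 end peak (0.119) and the Sfrp5 peak inside the gene (0.0707). Deviations of same-numbered RNA libraries correlated by 0.0884 to 0.214 and those of ATAC-seq libraries by -0.011 to 0.054, so the samples were taken to share only a number, as 1 of the 4 RNA pairs and all 3 ATAC-seq pairs were under 0.1. Each EpiSC library with a DE partner had its best RNA correlation with its own number, while DE replicate 4 had its best with EpiSC replicate 1 (0.12). No paired analysis was possible for the strain comparisons because the groups share fewer than 2 numbers.

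With at least 10 counts asked of every library, 18 nearby peaks were higher and 7 lower in DE, among fewer peaks tested (18086 called in all, against 65601). Within 50 kb, 171 peaks were tested in DE, with 76 higher and 37 lower, against 32.6% and 25.0% of all peaks. In PWK 165 were tested within 50 kb, with 0 higher and 3 lower, against 1.42% and 3.68% of all peaks. Scaling to total library size moved the median log2 change of all peaks in DE to -0.21, and leaving out chromosome 8 moved it to -0.16, with 33 peaks higher and 29 lower. Either turned the uncalled change of the Dkk1 start peak, to -0.0888 and -0.0309. For PWK over B6, DESeq2 gave 2 lower genes, and no filter or only both groups gave 0 higher. Against B6 replicates 2, 44 and 51 alone, 1 gene was lower and Fzd5 turned to 0.0562. For F1 over B6, only both groups gave 0 lower. Against B6 replicates 1 and 4 alone, 2 were lower, and Axin2 turned to 0.29 and Sp5 to -0.47. For PWK over F1, the filter of 10 counts and the fit of only both groups gave 0 lower each. Of the peaks in PWK, 1 was higher with RLE size factors, with total library size and with DESeq2, and the uncalled Wnt5a end peak turned to -0.000266 without a filter. The cause of these changes was not tested, apart from the fewer features or libraries that a setting leaves.

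Leaving out 1 library at a time gave 0 to 1 genes higher and 0 to 1 lower for PWK over B6, 0 to 1 lower for F1 over B6, 1 to 2 higher and 0 to 1 lower for PWK over F1, and 0 to 1 peaks higher and 0 to 1 lower for PWK over B6. Values that were not called and changed sign ran from -0.24 to 0.45 for Dkk1 in PWK over B6. In F1 over B6 they ran from -0.72 to 0.49 for Sp5, -0.22 to 0.19 for Fzd5, -0.45 to 0.14 for Sfrp1, -0.0046 to 0.16 for Znrf3 and -0.11 to 1.72 for Sfrp5. Among peaks they ran from -0.10 to 0.19 (Dkk1 start) and -0.12 to 0.25 (Wnt5a, lower-coordinate end) in DE, and from -0.44 to 0.16 (Znrf3 end), -0.12 to 0.11 (Wnt5a, higher-coordinate end) and -0.0753 to 0.15 (Fzd5 start) in PWK over B6.

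Depth limits what can be said of Sfrp5 in EpiSCs, of Axin2 in DE replicate 44, and of nearby peaks too low to be tested. The PWK peak comparison rests on 2 PWK libraries, and the DBA values have no replicate.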
